A study of Homo sapiens with 2 samples.

Results

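The 10 genes described here code for immediate early factors: the zinc-finger protein EGR1, the AP-1 proteins FOS, FOSL1, FOSL2, JUN, JUNB and JUND, the small nuclear and stress proteins IER2 and IER3, and MYC. They were taken as a named set, selected on the difference in TPM between the libraries compared here, and the TPM of each gene's transcripts was summed. They are 10 of 35061 genes with a named transcript. Because of how they were selected, their values are a description.

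The cells were HepG2, a human liver cancer line, carrying a Dox-on cassette for SAMD4B, an RNA-binding protein related to Smaug of the fly. The study profiled expression with and without overexpressed SAMD4B. It set 1 library grown for 48 h with 1 µg/ml doxycycline (Dox) against 1 library grown without Dox, and both carried the cassette. Polyadenylated RNA was sequenced, per the labels. With 1 library per group there is no spread between replicates, so no test was made and every difference is between these libraries. The protocol field of both samples names Dox, and the groups follow the titles. Cells given Dox without the cassette were not analysed here, so Dox and SAMD4B cannot be told apart, and whether the cells are a clone or a pool is not given in the sources used here. SAMD4B, the induced gene, had 261 TPM with Dox and 47.5 TPM without Dox. The hepatocyte markers were present, with AFP at 12140 TPM with Dox and 13406 TPM without Dox, and the 10 of them summed to 37009 TPM with Dox and 37735 TPM without Dox. Of the 10 markers of fibroblasts, endothelium and leukocytes, 4 reached a mean of 1 TPM, PTPRC and VWF were listed at 0 in both libraries, and the sum was 60.1 TPM with Dox and 81.2 TPM without Dox. The fibroblast marker ACTA2 had 36.7 TPM with Dox and 61.3 TPM without Dox, and PDGFRB had 7.35 TPM with Dox and 4.11 TPM without Dox. The part of these genes in the results was not tested, and in bulk RNA a change in the number of cells of a type and in the RNA per cell cannot be told apart.

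Immediate early genes are switched on within minutes by growth factors, stress or matrix contact, without new protein synthesis. ERK and related kinases act on factors such as SRF, the ELK proteins and CREB that already sit at their promoters. FOS-type proteins pair with JUN-type proteins to form AP-1, while EGR1 binds GC-rich sites and MYC pairs with MAX at E-boxes. Most of their mRNAs are short-lived, and AU-rich elements of the 3' end are known to speed their decay. In liver they are known for the priming of regeneration after injury.

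All 10 genes had a higher summed TPM with Dox than without Dox, and 3 stood out. IER3, EGR1 and FOS had at least 4 times the TPM with Dox. FOSL1 and JUN were next, FOSL2, IER2 and JUNB differed less, and MYC and JUND were close in the libraries. On the scale of TPM plus 1, on which a fold is understated for low genes, 5 of 10 reached 1.5-fold higher, and 3 of these reached 2-fold. Of all 11844 genes with a mean of at least 1 TPM, 6267 were above their value without Dox. Of these 11844, 5.17% reached 1.5-fold higher and 1.58% reached 2-fold higher with Dox. None of the 10 was lower by 1.5-fold or 2-fold, against 3.81% and 0.819% of all genes. The median log2 fold change was 0.64 over the 10 genes and 0.02 over all genes. The genes were selected on this contrast, so nothing is read from these counts.

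**Figure D1:**
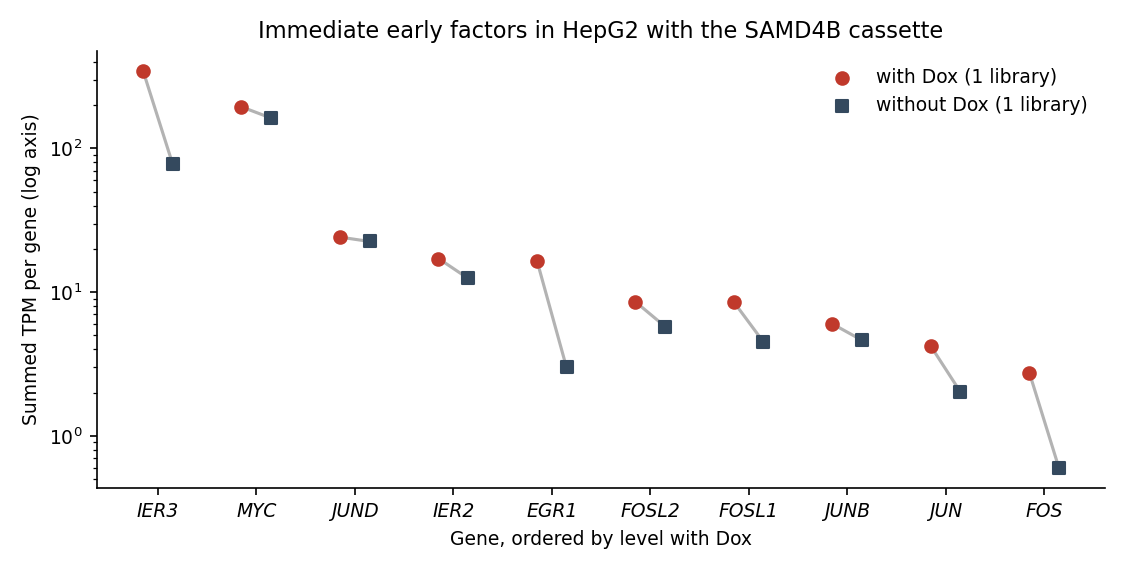
Summed TPM per gene (log axis) of the 10 factors with Dox (circles) and without Dox (squares), 1 library each, ordered by level with Dox. IER3 and MYC lie at 78.1 TPM or more in both libraries, and the steepest lines belong to IER3, EGR1 and FOS.

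TPM is scaled to transcript length, so levels can be compared between genes, and the set spanned a wide range. With Dox the order was IER3, MYC, JUND, IER2, EGR1, FOSL2, FOSL1, JUNB, JUN and FOS. Without Dox, MYC led IER3 and EGR1 stood eighth. MYC and IER3 with Dox were at percentiles 94.6 and 97.1 of all genes compared, JUND at 58.2, and FOS at 10.9. HepG2 thus held much MYC and IER3 mRNA and little FOS mRNA in either library.

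The depth behind these values was estimated from the steps of low TPM values, as 23632717 fragments with Dox and 18233666 fragments without Dox on primary-assembly transcripts of at least 600 nt. The ratio of a gene's fragments, after scaling to depth, is given with an exact 95% binomial interval (Clopper-Pearson). The intervals cover counting error only. The interval lay above 1 for 8 of the 10 genes and reached 1 for JUNB and JUND. The share of all genes with such an interval was not counted, so nothing is read from this count. At this depth small ratios cleared 1 as well, as for the kinase gene RPS6KA3 at 1.03 (interval 1.01 to 1.05).

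**Figure D2:**
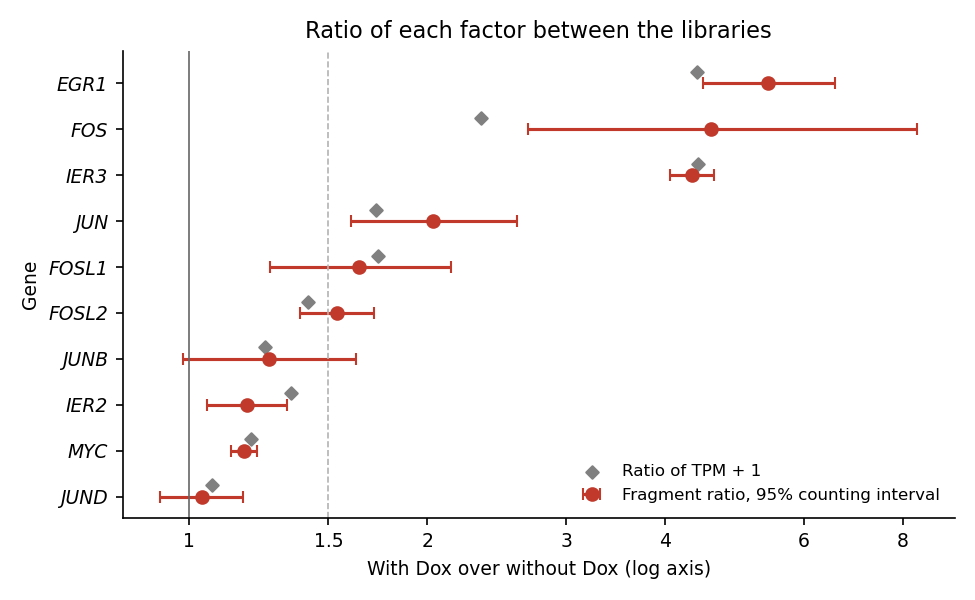
Ratio with Dox over without Dox (log axis) for the 10 factors, as estimated fragments relative to depth with a 95% counting interval (circles) and as TPM plus 1 (diamonds). The lines mark ratios of 1 and 1.5; EGR1, FOS and IER3 have intervals wholly above 2, and those of JUNB and JUND reach 1.

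IER3 (IEX-1), a small stress-induced protein that modulates apoptosis and ERK signalling, had the highest level with Dox, 347 TPM, against 78.1 TPM without Dox. This is a log2 fold change of 2.14 on the TPM plus 1 scale and the largest of the 10. IER3 lies in the MHC region of chromosome 6, for which the genome release also holds alternate sequences. Its 2 transcripts on the primary assembly were listed at 0 in both libraries. All of its TPM stood on 3 of the 4 listed transcripts that GENCODE names IER3 but places outside the primary assembly, so a sum over primary transcripts would miss the gene. ENST00000383560 had 243 TPM with Dox and 54.1 TPM without Dox, and ENST00000450236 had 101 TPM with Dox and 23.3 TPM without Dox. ENST00000400509 had 3.36 TPM with Dox and 0.76 TPM without Dox. The split among them was nearly the same, with 69.9% of the gene on ENST00000383560 with Dox and 69.2% without Dox. The lengths of these transcripts are not used here, so the 1244 nt of the primary transcript ENST00000259874 stood in for them. The ratio of fragments was then 4.32 (interval 4.05 to 4.62).

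EGR1, an early growth response transcription factor, had 16.5 TPM with Dox and 2.99 TPM without Dox, on its only listed transcript. That transcript, ENST00000239938 of 3138 nt, held an estimated 874 fragments with Dox and 125 without Dox. Relative to depth the ratio was 5.39 (interval 4.47 to 6.56), the highest of the 10. Its log2 fold change, 2.14, ranked 32nd of the 11844 genes compared, just behind that of IER3 at rank 30. In level EGR1 was near the middle of all genes with Dox, at percentile 47.4.

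FOS, the founding AP-1 partner of JUN, had 2.74 TPM with Dox and 0.60 TPM without Dox. Only ENST00000303562, the full-length form with 4 exons, was above 0 among its 10 listed transcripts. It rested on few fragments, an estimated 95 with Dox and 16 without Dox. The ratio was therefore wide in its error, 4.58 (interval 2.68 to 8.34), and the log2 fold change of 1.23 on the TPM plus 1 scale is well below its log2 ratio. JUN, the basic leucine zipper partner of FOS proteins, had 4.20 TPM with Dox and 2.02 TPM without Dox. Its log2 fold change was 0.78 and its fragment ratio 2.03 (interval 1.60 to 2.60), on a single-exon transcript of 3540 nt.

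The promoter windows of these genes differ in the motifs they hold. RefSeq promoters (GRCh38.p14, from 250 bases before to 50 after the gene's start) were matched for 7 of the 10 genes. FOSL1, IER3 and MYC were not matched. The start is that of RefSeq, and the windows of JUN and FOSL2 lie within the spans that GENCODE gives these genes. The sequences of EGR1, FOS and JUN are shown because these genes were among the most different, and that of JUND because it was the least different. Capitals mark the motifs searched on both strands: the CArG box bound by SRF, the AP-1 site TGANTCA, the CRE-like sites TGACGTCA, TGACATCA and TGACGT (which lies within TGACGTCA), the EGR site GCGNGGGCG, the E-box CACGTG and the TATA box TATAAA. The windows are chr5:138465229-138465528 on the plus strand for EGR1, chr14:75278578-75278877 on the plus strand for FOS, chr1:58783998-58784297 on the minus strand for JUN, and chr19:18281573-18281872 on the minus strand for JUND.
EGR1: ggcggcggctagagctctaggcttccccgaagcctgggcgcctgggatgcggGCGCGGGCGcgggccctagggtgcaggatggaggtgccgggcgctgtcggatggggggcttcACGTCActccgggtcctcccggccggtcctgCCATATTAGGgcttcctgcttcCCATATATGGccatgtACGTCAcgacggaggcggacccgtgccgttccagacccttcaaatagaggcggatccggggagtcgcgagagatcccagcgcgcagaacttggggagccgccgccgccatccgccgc
FOS: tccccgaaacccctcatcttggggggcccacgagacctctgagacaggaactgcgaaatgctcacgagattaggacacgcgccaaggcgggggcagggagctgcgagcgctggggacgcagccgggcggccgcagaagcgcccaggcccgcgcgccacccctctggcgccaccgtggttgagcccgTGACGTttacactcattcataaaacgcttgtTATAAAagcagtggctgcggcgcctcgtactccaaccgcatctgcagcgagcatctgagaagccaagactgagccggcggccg
JUN: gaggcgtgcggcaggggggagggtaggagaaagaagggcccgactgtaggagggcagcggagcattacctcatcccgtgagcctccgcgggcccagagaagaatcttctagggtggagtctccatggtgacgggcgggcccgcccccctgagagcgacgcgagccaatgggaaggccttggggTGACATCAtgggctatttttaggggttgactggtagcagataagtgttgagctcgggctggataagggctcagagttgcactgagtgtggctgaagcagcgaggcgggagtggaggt
JUND: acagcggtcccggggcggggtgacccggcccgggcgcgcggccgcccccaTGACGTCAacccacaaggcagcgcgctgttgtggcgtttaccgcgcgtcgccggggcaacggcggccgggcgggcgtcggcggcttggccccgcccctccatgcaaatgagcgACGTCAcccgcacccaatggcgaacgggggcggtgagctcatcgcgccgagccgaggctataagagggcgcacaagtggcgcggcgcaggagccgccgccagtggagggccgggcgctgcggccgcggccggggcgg

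EGR1 held 2 CArG boxes, starting at -105 and -83 from its annotated start, where 1.29% of 35116 promoters of the same length held a CArG box and 0.031% held 2 or more. None of the other matched promoters held one within this window, and sequence further upstream was not searched. EGR1 also held TGACGT at -136 and -67 and GCGNGGGCG at -198, the last a motif of 9.43% of promoters. TGACGT lay in 4 of the 7 promoters (EGR1, FOS, FOSL2 and JUND) and in 7.98% of all promoters. FOS held it at -64, upstream of a TATA box at -33, and 11.53% of promoters held TATAAA. JUN held TGACATCA at -67, a motif of 2.61% of promoters, and JUND held the full TGACGTCA at -200, a motif of 1.85%. FOSL2 held the AP-1 site TGANTCA just after its start, at 4, as 7.71% of promoters did, and JUNB a TATA box at -31. CACGTG lay in 0 of the 7 and in 7.26% of all promoters, and IER2 held none of the motifs in this window. CRE-like motifs lay in JUND, the least different of the 10, and in EGR1 and FOS. Whether any of these motifs bears on the differences was not tested.

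The FOS-related genes code for the partners that JUN proteins need to form stable AP-1. FOSL1 (FRA-1), the FOS-like factor of invasive epithelial cells, had 8.51 TPM with Dox and 4.49 TPM without Dox. Its log2 fold change was 0.79 and its fragment ratio 1.64 (interval 1.26 to 2.14). The full-length transcript ENST00000312562 was close, at 4.51 TPM with Dox and 3.84 TPM without Dox. Most of the difference lay in 3 shorter coding forms. ENST00000532401 had 1.65 TPM with Dox and 0.43 TPM without Dox, and ENST00000448083 had 1.31 TPM with Dox and 0.22 TPM without Dox. ENST00000531493 had 1.03 TPM with Dox and was listed at 0 without Dox. The full-length form made up 53.0% of the gene's TPM with Dox and 85.4% without Dox, on an estimated 115 fragments with Dox and 77.6 without Dox. The shorter forms rested on far fewer fragments. ENST00000532401 had an estimated 25.6 with Dox and 5.28 without Dox, ENST00000448083 had 27.5 with Dox and 3.74 without Dox, and ENST00000531493 had 17.3 with Dox and 0 without Dox. The shift in make-up is therefore uncertain.

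FOSL2 (FRA-2) had 8.56 TPM with Dox and 5.76 TPM without Dox, a log2 fold change of 0.50. Its 6708-nt transcript ENST00000264716 carried 98.3% of the TPM with Dox and 93.3% without Dox. Over all its transcripts there were 1019 fragments with Dox and 512 without Dox, a ratio of 1.54 (interval 1.38 to 1.71). FOSL2 thus missed 1.5-fold on the TPM plus 1 scale and passed it in fragments. FOSB, the remaining FOS gene, which is no member of the set, had 0.78 TPM with Dox and 0.66 TPM without Dox. Summed, the FOS family had 20.6 TPM with Dox and 11.5 TPM without Dox. FOS itself made up 13.3% of it with Dox and 5.19% without Dox, and FOSL2 41.6% with Dox and 50.05% without Dox.

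JUND and JUNB, the other JUN proteins, differed little. JUND, the form that is present in resting cells, had 24.1 TPM with Dox and 22.5 TPM without Dox, with a log2 fold change of 0.10 and a fragment ratio of 1.04 (interval 0.92 to 1.17). JUNB, a weaker activator than JUN, had 6.003 TPM with Dox and 4.62 TPM without Dox, with a log2 fold change of 0.32 and a ratio of 1.26 (interval 0.98 to 1.63). For both, the difference was not detectable beyond counting error at this depth. The span of JUNB overlaps that of HOOK2 on the opposite strand, which had 5.22 TPM with Dox and 6.498 TPM without Dox. Whether the library kept strand is not given in the sources used here, so reads from the overlap cannot be told apart. The JUN family summed to 34.3 TPM with Dox and 29.1 TPM without Dox, with JUND at 70.3% of it with Dox and 77.2% without Dox. JUN made up 12.2% of the family with Dox and 6.92% without Dox. The summed JUN family was 1.67 times the summed FOS family with Dox and 2.53 times without Dox.

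**Figure D3:**
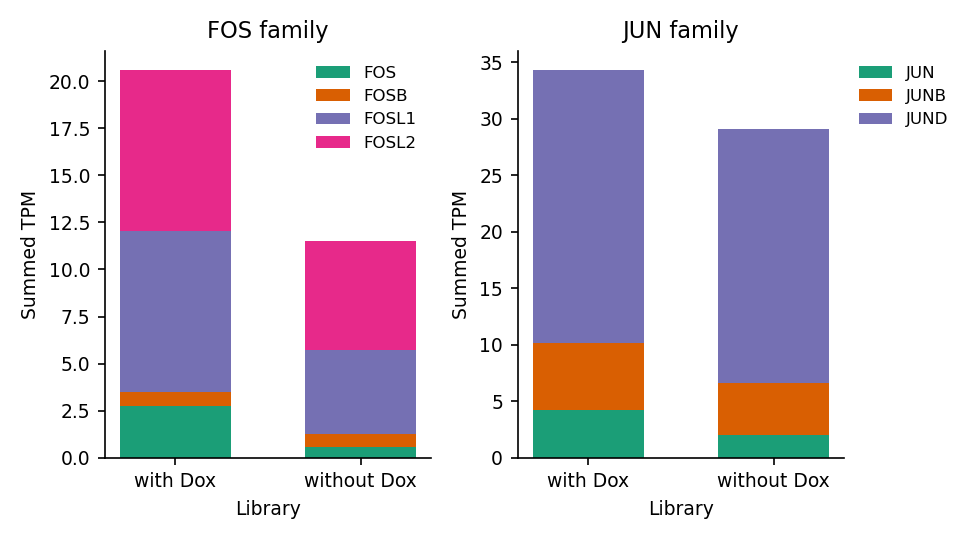
Summed TPM of the FOS family (left) and the JUN family (right) with Dox and without Dox, 1 library each, stacked by gene. FOSL1 and FOSL2 form most of the FOS family and JUND most of the JUN family in both libraries; the FOS family sums to 20.6 TPM with Dox and 11.5 TPM without Dox.

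IER2, a nuclear protein of growth-stimulated cells, had 17.1 TPM with Dox and 12.5 TPM without Dox, a log2 fold change of 0.43. The transcripts of IER2 went in opposite directions. ENST00000588173, a single-exon form, had 10.5 TPM with Dox and 12.2 TPM without Dox. ENST00000292433, a spliced form with the same coding length of 669 nt, had 6.66 TPM with Dox and was listed at 0 without Dox. Without transcripts listed at 0 in 1 library the log2 fold change of IER2 was -0.21. In fragments, over every transcript together, the ratio was 1.18 (interval 1.05 to 1.33).

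MYC, the basic helix-loop-helix factor of growth and ribosome production, was the most abundant of the set without Dox. It had 194 TPM with Dox and 162 TPM without Dox, a log2 fold change of 0.26. The high count made the interval of its fragment ratio narrow, 1.17 (1.13 to 1.22), so a difference of this size was beyond counting error, but the spread between cultures is not known. Of its 2 main transcripts, ENST00000377970 had 143 TPM with Dox and 108 TPM without Dox. ENST00000524013 went the other way, with 41.5 TPM with Dox and 47.4 TPM without Dox. ENST00000377970 made up 73.5% of the gene with Dox and 66.4% without Dox. Salmon divides fragments that transcripts of a gene share, so the split is less certain than the sum.

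**Figure D4:**
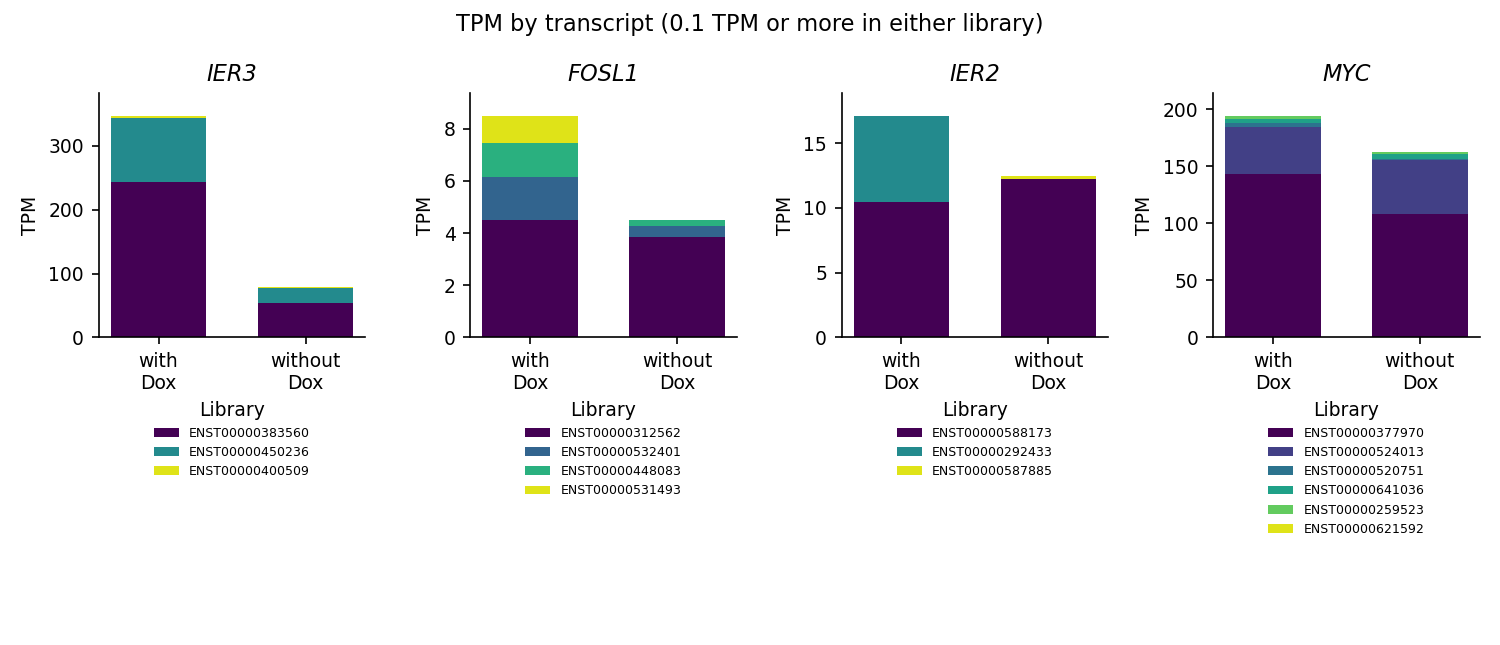
TPM by transcript of IER3, FOSL1, IER2 and MYC with Dox and without Dox, stacked, for transcripts of at least 0.1 TPM in either library. The make-up of IER3 is alike in the libraries, while FOSL1 and IER2 have transcripts with Dox that are low or listed at 0 without Dox.

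The genes lie on 8 chromosomes in GENCODE release 29 (GRCh38). JUN is on chromosome 1 (ENSG00000177606, 58780788 to 58784327), FOSL2 on 2 (ENSG00000075426, 28392448 to 28417312), EGR1 on 5 (ENSG00000120738, 138465490 to 138469315) and IER3 on 6 (ENSG00000137331, 30743199 to 30744554). MYC is on chromosome 8 (ENSG00000136997, 127735434 to 127741434), FOSL1 on 11 (ENSG00000175592, 65892049 to 65900573) and FOS on 14 (ENSG00000170345, 75278774 to 75282230). JUNB (ENSG00000171223, 12791496 to 12793315), IER2 (ENSG00000160888, 13150415 to 13154908) and JUND (ENSG00000130522, 18279760 to 18281622) all lie on chromosome 19, and they are 3 of the 4 with the smallest log2 fold changes. Within 100 kb of the 10 genes stood 41 other genes with a mean of at least 1 TPM. Of these 41 neighbours 2 reached 1.5-fold higher with Dox, a share near the 5.17% of all genes. Among the neighbours 0 reached 1.5-fold lower, against 3.81% of all genes, and their median log2 fold change was -0.08. The pair was GDF15 near JUND, a secreted stress factor with 299.9 TPM with Dox and 101 TPM without Dox, and EFEMP2 near FOSL1, with 10.1 TPM with Dox and 5.84 TPM without Dox, both named after their values were seen.

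The members are compact genes. Their median span was 3683 bp, against 32690 bp over 11158 protein-coding genes compared, and 90% spanned under 10 kb, against 18.1% of those genes. Their main transcript had a median of 2 exons, against 8, and 40% (JUN, JUNB, JUND and IER2) had 1 exon, against 1.86%. The pentamer ATTTA, the core of AU-rich elements, occurred in the 3' untranslated region of 9 of 10, all but IER2, and in 62.7% of all genes. Its density was highest in MYC (8.40 per kb), IER3 (8.14) and FOS (6.20), against a median of 1.35 per kb over all genes. EGR1, with a log2 fold change close to that of IER3, had 0.81 per kb. The longer motif TTATTTATT occurred in FOS and FOSL2, and in 7.0% of all genes.

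The 30 bases richest in ATTTA (capitals) are shown for IER3, FOS and EGR1, the members with the largest log2 fold changes. They are given in the sense of the mRNA with T for U, from the 3' untranslated region of ENST00000259874 on chromosome 6, ENST00000303562 on chromosome 14 and ENST00000239938 on chromosome 5.
IER3: ttgctcctaattaatATTTAtatgtATTTA
FOS: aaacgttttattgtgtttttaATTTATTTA
EGR1: tctatttttttaactgaaaatgtaaATTTA

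IER3 and FOS each held 2 pentamers in their window, set apart in IER3 and sharing a base in FOS, while EGR1 held 1.

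Most other genes on a list of AP-1 and related leucine zipper genes were close in the libraries. The list held AP-1, ATF, BATF and MAF genes, and also CREB1, CREM, CEBPB, DDIT3 and genes related to NRF2. Of its 20 genes with a mean of at least 1 TPM, 2 reached 1.5-fold higher and 0 reached 1.5-fold lower. The median log2 fold change was 0.08. Over all genes compared, 5.17% reached 1.5-fold higher and 3.81% lower, and the median was 0.02. The exceptions were the small MAF genes MAFF and MAFK. Small MAF proteins lack an activation domain and pair with FOS and NRF2 proteins. MAFF had 18.8 TPM with Dox and 8.45 TPM without Dox (fragment ratio 2.16, interval 1.88 to 2.49). MAFK had 10.5 TPM with Dox and 5.35 TPM without Dox (ratio 1.91, interval 1.64 to 2.23). MAFG, a more abundant small MAF gene, did not reach 1.5-fold, with 28.9 TPM with Dox and 22.3 TPM without Dox (ratio 1.26, interval 1.18 to 1.34). ATF3, a stress-induced AP-1 partner that is itself an immediate early gene, had 10.2 TPM with Dox and 9.66 TPM without Dox. Only 58.6% of its TPM lay on transcripts of at least 600 nt, so no fragment ratio is given for it. NFE2L2, which codes for NRF2, was the most abundant of the list, with 288 TPM with Dox and 208 TPM without Dox. JDP2, a repressor of AP-1, had 4.22 TPM with Dox and 4.97 TPM without Dox.

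The EGR-related list held 3 genes with a mean of at least 1 TPM, NAB1, NAB2 and WT1, and none of them is an EGR gene. NAB2, a corepressor that is induced by EGR1 and binds it, had 19.8 TPM with Dox and 11.7 TPM without Dox, with a log2 fold change of 0.71 and a ratio of fragments of 1.65 (1.45 to 1.87). Its paralogue NAB1 had 43.2 TPM with Dox and 48.1 TPM without Dox, and WT1, a related zinc-finger factor, had 2.40 TPM with Dox and 2.47 TPM without Dox. EGR3 was near the floor, at 0.53 TPM with Dox and 0.08 TPM without Dox, and EGR2 and EGR4 were lower still.

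In the MYC network, 1 of 11 genes was at least 1.5-fold higher and 0 lower, with a median of 0.00. MAX, the partner MYC needs to bind DNA, had 36.0 TPM with Dox and 49.2 TPM without Dox, a log2 fold change of -0.44. MYC was 5.40 times MAX with Dox and 3.30 times without Dox. Only 59.1% of the TPM of MAX lay on transcripts of at least 600 nt, so no fragment ratio is given for it and its counting error is not known. MNT, a MAX partner that opposes MYC, had 17.8 TPM with Dox and 11.1 TPM without Dox, but its fragment ratio was 1.15 (interval 1.02 to 1.29). MXD1 and MXD4, further MAX partners, had log2 fold changes of -0.23 and -0.18, and MYCN was listed at 0 in both libraries. MYC targets of ribosome biogenesis and growth showed 0 of 28 genes past 1.5-fold in either direction, with a median of -0.03. Over all genes compared, 5.17% reached 1.5-fold higher and 3.81% lower. With lists this short, nothing is read from the counts of the network or of the targets. The 4 most abundant, NPM1, HSPD1, NCL and FBL, had log2 fold changes of 0.02, -0.13, -0.12 and -0.03.

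Many other immediate early genes were higher too. Of 34 listed, 28 had a mean of at least 1 TPM, and 24 of those were above their value without Dox. Of the 28, 15 passed 1.5-fold higher and 1 passed 1.5-fold lower, and the median log2 fold change was 0.59. Of all 11844 genes compared, 6267 were above their value without Dox and 5.17% reached 1.5-fold higher. The matricellular CCN1 had 35.0 TPM with Dox and 5.51 TPM without Dox, and CCN2 had 659 TPM with Dox and 258 TPM without Dox. The zinc-finger factor KLF6 had 83.3 TPM with Dox and 37.0 TPM without Dox, and KLF4 had 1.72 TPM with Dox and 0.29 TPM without Dox. KLF4, with a mean of 1.00 TPM, passed the filter only through its value with Dox. It is counted among the 15, and nothing is read from it. The stress genes PPP1R15A and GADD45B had log2 fold changes of 1.13 and 1.11. ZFP36, the decay factor that binds AU-rich elements of immediate early mRNAs, had 13.8 TPM with Dox and 5.81 TPM without Dox. The abundant ID1, MCL1 and RHOB had log2 fold changes of 0.51, 0.39 and 0.19. SIK1, a kinase gene picked out after its values were seen, was the 1 lower gene, with 3.31 TPM with Dox and 7.27 TPM without Dox. Only 53.9% of its TPM lay on transcripts of at least 600 nt, so its counting error is not known.

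The upstream genes differed little. Of 20 kinase and factor genes, 18 were above their value without Dox, but 0 passed 1.5-fold, and the median log2 fold change was 0.23. Over all 11844 genes compared, 6267 were above their value without Dox and the median was 0.02. Of these genes, 5.17% reached 1.5-fold higher and 3.81% lower. RPS6KA3, a kinase downstream of ERK, had 321 TPM with Dox and 271 TPM without Dox. MAP2K2 and MAPK14 had log2 fold changes of 0.12 and 0.22. SRF and ELK1, looked up after the values were seen because SRF binds CArG boxes, had log2 fold changes of 0.28 and 0.44. RNA levels do not show how active these kinases were.

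Among proteins that bind AU-rich elements, ZFP36 and ZFP36L1 were the 2 of 15 at least 1.5-fold higher, with log2 fold changes of 1.12 and 0.81, and both are immediate early genes too. None was lower by as much, and the median was 0.01. Over all genes compared, 5.17% reached 1.5-fold higher and 3.81% lower. The most abundant, PABPC1, YBX1, HNRNPD and KHSRP, had log2 fold changes of -0.08, -0.07, -0.27 and -0.25.

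Genes known as AP-1 or EGR1 targets had a median log2 fold change of 0.39, with 6 of 16 at least 1.5-fold higher and 1 lower. Over all genes compared, 5.17% reached 1.5-fold higher and 3.81% lower, and the median was 0.02. The list was chosen with earlier results known, so these values are a description. The abundant NQO1, CCND1, HMOX1 and EZR had log2 fold changes of 0.28, 0.33, 0.22 and 0.03. The 1 lower gene was the matrix metalloproteinase gene MMP3, with 1.12 TPM with Dox and 2.21 TPM without Dox. Only 50.5% of its TPM lay on transcripts of at least 600 nt, so its counting error is not known. The cytokine gene IL6 was listed at 0 in both libraries. MMP3 and IL6 were named after their values were seen.

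**Figure D5:**
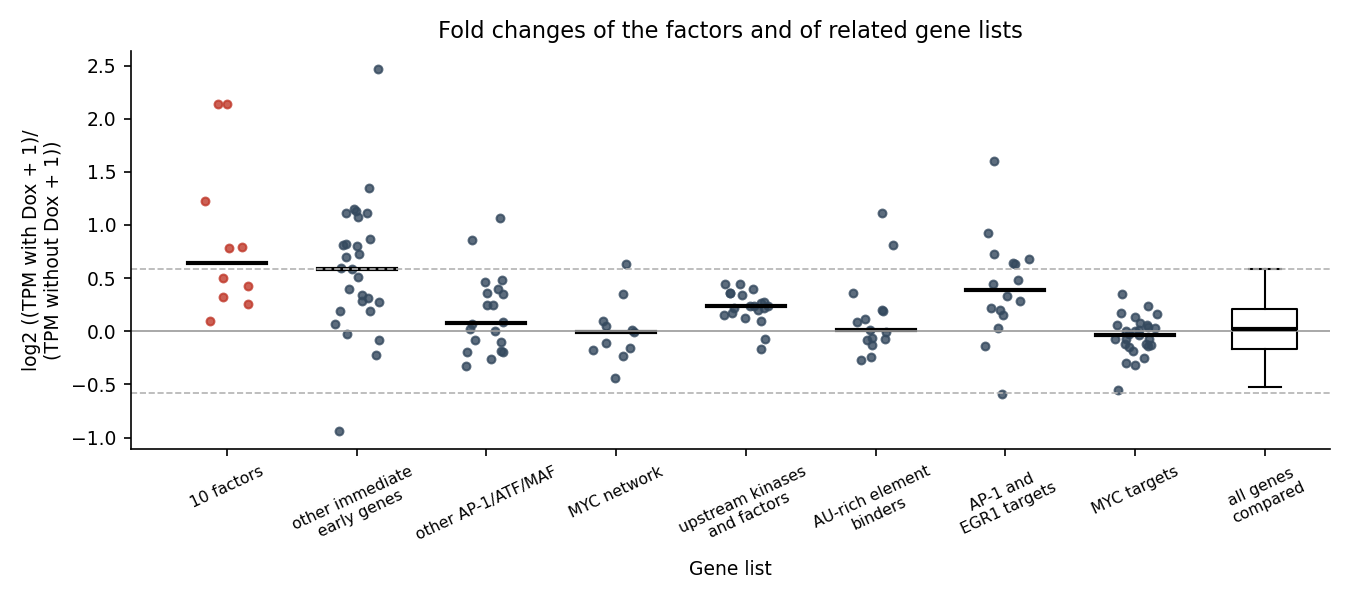
Log2 fold changes with Dox over without Dox of the 10 factors (first column) and of the related lists, for genes with a mean of at least 1 TPM; bars are medians, dashed lines mark 1.5-fold, and the box shows all 11844 genes (quartiles, whiskers at percentiles 5 and 95). The medians of the 10 factors (0.64) and the other immediate early genes (0.59) lie near the upper dashed line, and that of the MYC targets (-0.03) near 0.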

How the data were processed

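Polyadenylated RNA was measured in 1 library with Dox and 1 without Dox. The authors deposited TPM values for 184844 Ensembl transcripts, for which the submitters' processing notes name Trimmomatic, Salmon and GRCh38.p13. The sources used here give no version and no annotation release. Each deposited column summed to 1000000 TPM. Salmon shares fragments among similar transcripts, so values of single transcripts are less certain than sums.

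Transcripts were named through GENCODE release 29 by identifier without version. On the primary assembly 161838 matched. A further 10688, outside it, were named by GENCODE's table of transcripts and symbols (2.94% of the TPM with Dox and 3.05% without Dox). The remaining 12318 (3.71% with Dox and 3.67% without Dox) were left out, so a gene may miss newer transcripts. TPM was summed per gene, and log2((TPM with Dox + 1)/(TPM without Dox + 1)) was computed for genes with a mean of at least 1 TPM. With 1 library per group no test could be made. Folds of 1.5 and 2 were counted.

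Depth was estimated from single-transcript genes of at least 600 nt, whose TPM times length less 300 nt fell near whole multiples of a fixed value. Of values worth under 5.5 fragments, 80.4% with Dox and 76.7% without Dox lay within 0.1 of a whole number. The offset and the value were fitted to these same data. Fragment ratios count transcripts of at least 600 nt and are given where these held at least 80% of a gene's TPM. The procedure was tested on simulated data.

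The members and gene lists were chosen with earlier results of these data known. All members were named. Of the AP-1, EGR and MYC network lists any gene with a mean of at least 1 TPM could be named, and of each other list the 4 most abundant and every gene at least 2-fold different. Some genes that this rule names are not reported here. Alternatives were other pseudocounts, filters, transcript sets and scalings. Python 3.11.15, numpy 2.4.6, pandas 2.3.3 and scipy 1.17.1 were used.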

Additional observations from a re-analysis of the deposited data

How the results depend on the processing

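No paired analysis was possible because each group has 1 library. Each gene stayed higher with Dox under every alternative that could be run for it, except IER2 without transcripts listed at 0 in 1 library (-0.21). With a pseudocount of 5 TPM, 2 of the 10 genes were at least 1.5-fold higher (median 0.37), and with a mean of at least 5 TPM, which leaves out FOS and JUN, 3 were. With primary-assembly transcripts only, chosen after seeing the data, IER3 had no TPM, 4 genes were at least 1.5-fold higher and the median was 0.50.

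With a pseudocount of 5 TPM, counts past 1.5-fold in either direction were 9 for other immediate early genes (median 0.44) and 2 for AP-1 and EGR1 targets. They were 1 for other AP-1 and related genes, 0 for the EGR-related list, 0 for the MYC network and 1 for markers of other cells. The MYC network also had 0 with protein-coding transcripts only, in estimated fragments and without transcripts listed at 0 in 1 library. The targets had 4 without such transcripts and 3 with a mean of at least 5 TPM. The markers of other cells had 1 without such transcripts and 1 in fragments (median -0.48). In fragments the hepatocyte median was -0.21 and that of the EGR-related list 0.34. The median of the EGR-related list was 0.28 with a mean of at least 5 TPM, and that of other immediate early genes 0.39 with no filter.

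Over all genes, a pseudocount of 5 TPM gave 230 higher and 163 lower by 1.5-fold, and 54 higher and 18 lower by 2-fold, and a pseudocount of 0.1 TPM gave 295 and 172 by 2-fold. A mean of at least 5 TPM gave 340 and 270 by 1.5-fold and 68 and 28 by 2-fold. Without transcripts listed at 0 in 1 library, 113 and 53 passed 2-fold. The causes of the shifts between pseudocounts and transcript sets were not tested. Low depth limits FOS most, with the fewest fragments of the 10.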

Other observations

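The AU-rich motif TTATTTATT in the 3' untranslated region of the main transcript was also looked at over all genes but the 10 factors, after the values were seen. Of 630 genes with 1 such motif, 10.2% were at least 1.5-fold higher and 1.75% lower, and of 147 genes with 2 or more, 8.84% were higher and 1.36% lower. Of 10371 genes without it, 4.40% were higher and 3.47% lower. Among genes spanning under 10 kb, 17.3% of 81 with the motif and 5.29% of 1929 without it were at least 1.5-fold higher. Of 696 genes with the motif that spanned 10 kb or more, 9.05% were. Other immediate early genes were not left out, and the length of the 3' untranslated region was not taken into account. These are shares of genes in 1 pair of libraries, and no test was made.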
